A study of Rattus norvegicus with 16 samples.

Results

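Genes of cholesterol synthesis that are known targets of the transcription factor SREBP2 were followed in the rat aorta over 4 ages. They were chosen by gene symbol: every probe set of the array whose platform annotation gives Insig1, Hmgcs1, Sqle, Fdft1, Fdps, Cyp51, Idi1 or Lss. Of these 8 genes 7 were found, with 20 probe sets, among 4737 genes that have a probe set of their own symbol. No probe set carries the symbol Hmgcs1 in the annotation used here, and the same holds for Srebf2. Of the 20 probe sets 17 passed a filter on low signals and were tested, and at least 1 of them stood for each of the 7 genes.

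The tissue was the descending thoracic aorta, a piece 1 cm long from each rat, at 3, 6, 15 and 28 months of age, with 4 rats and 4 Affymetrix arrays per age. The labels name no treatment, strain or sex, and the array records name a different rat for each of the 16 arrays. Values are MAS5 signals, a linear brightness per probe set that was already scaled alike on all arrays, and tests used log2(signal + 16). Differences are older minus younger on that log2 scale with their standard error (SE), from limma, and a probe set was called at an adjusted p under 0.05 over all 5250 probe sets tested. Signals of different probe sets are not set against each other.

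Cells make cholesterol from acetyl-CoA by way of mevalonate, farnesyl diphosphate, squalene and lanosterol. When sterols are scarce in the endoplasmic reticulum, the escort protein SCAP carries SREBP2 to the Golgi, where it is cut, and the freed part enters the nucleus and turns on nearly every enzyme of the route. INSIG1 holds SCAP back and is itself a target of SREBPs. Its gene is also abundant in adipocytes, where it follows lipid synthesis, and the aorta of the rat lies in fat that holds brown adipocytes.

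The labelled tissue was borne out by its defining markers, and fat was present beside it. Myl9, a myosin light chain of smooth muscle, stood at 15.65 ± 0.39 at 3 months and 16.06 ± 0.15 at 28 months (log2 value, SD, n = 4). All 10 smooth muscle markers tested were higher at 28 than at 3 months, with a median difference of 0.49, and 0 of them passed the test. Ucp1, the uncoupling protein of brown fat, stood at 15.53 ± 0.31 at 3 months and 13.59 ± 1.09 at 28 months (n = 4). The 21 general adipocyte and brown fat markers that were tested were averaged on the log2 scale into a fat score. It was 12.54 ± 0.52, 12.68 ± 0.65, 11.45 ± 1.61 and 11.04 ± 0.68 at 3, 6, 15 and 28 months (SD, n = 4 each). All 21 markers were lower at 28 than at 3 months. Their summed signal ranged from 124881 to 272577 at 3 months, from 126857 to 339635 at 6 months, from 33439 to 291244 at 15 months and from 37933 to 98054 at 28 months. Day 1 of hybridisation held replicates 1 and 2 of each age and day 2 held the others. At 15 months the fat score was 12.99 and 12.68 on the day 1 arrays and 10.10 and 10.01 on those of day 2. The beta-actin 3' to 5' ratio, a sign of RNA breakdown, reached 3.20 for replicate 4 of 15 months and 3.82 for replicate 4 of 28 months, and lay between 1.24 and 1.77 elsewhere.

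Between the youngest and the oldest rats the mean signal of Insig1 was 2.19-fold and 2.65-fold lower at 28 months on its probe sets, and that of Sqle, squalene epoxidase, was 1.54-fold higher (n = 4 arrays per age). On their brightest probe sets Fdps, Idi1, Fdft1, Lss and Cyp51 differed by -0.06, 0.13, -0.05, -0.02 and 0.39 on the log2 scale. The other Fdft1 probe sets spread from -0.23 to 1.13. These differences did not pass the test. No member probe set was called between ages in the fit over all 16 arrays without the hybridisation runs. At 28 against 3 months 0 of 17 passed, where 1.28% of all probe sets tested did (limma), and 4 of 17 had an unadjusted p under 0.05, against 22.4% of all. At 28 against 6 months 0 of 17 passed against a background of 0.781%, with 3 of 17 at an unadjusted p under 0.05 against 26.2%. With the hybridisation run as a block, which pairs the arrays of one replicate number, 2 of 17 passed at 28 against 6 months, Sqle higher and 1 probe set of Insig1 lower, where 17.4% of all probe sets passed. The block left 0 of 17 at 28 against 3 months, with a background of 12.2%. At 15 against 3 months 0 of 17 passed (background 0.0952%), at 15 against 6 months 0 (background 0.019%), and at 6 against 3 and 28 against 15 months 0 (background 0% each). At an unadjusted p under 0.05 these 4 comparisons had 3, 0, 1 and 0 of the 17, against 7.09%, 7.49%, 2.88% and 3.52% of all probe sets. The moderated F test over the 4 ages called 0 of 17, against 0.648% of all, with 4 of 17 at an unadjusted p under 0.05 against 15.9% of all, and the block also called 0, against 5.92%. On day 1 alone it called 3 (13.9%), and with the day as a factor 1 of 17, Sqle, was called at 28 against 6 months (16%). By the separation of arrays, 0 of 17 had the 4 arrays of one age all above those of the other at 6 against 3 months (1.6% of all probe sets) and 0 at 28 against 15 months (1.96%). It held for 2 of 17 at 15 against 3 months (2.97%) and for 1 each at 15 against 6 (2.46%), 28 against 3 (17.7%) and 28 against 6 months (17.4%), each with the older rats higher.

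**Figure D1:**
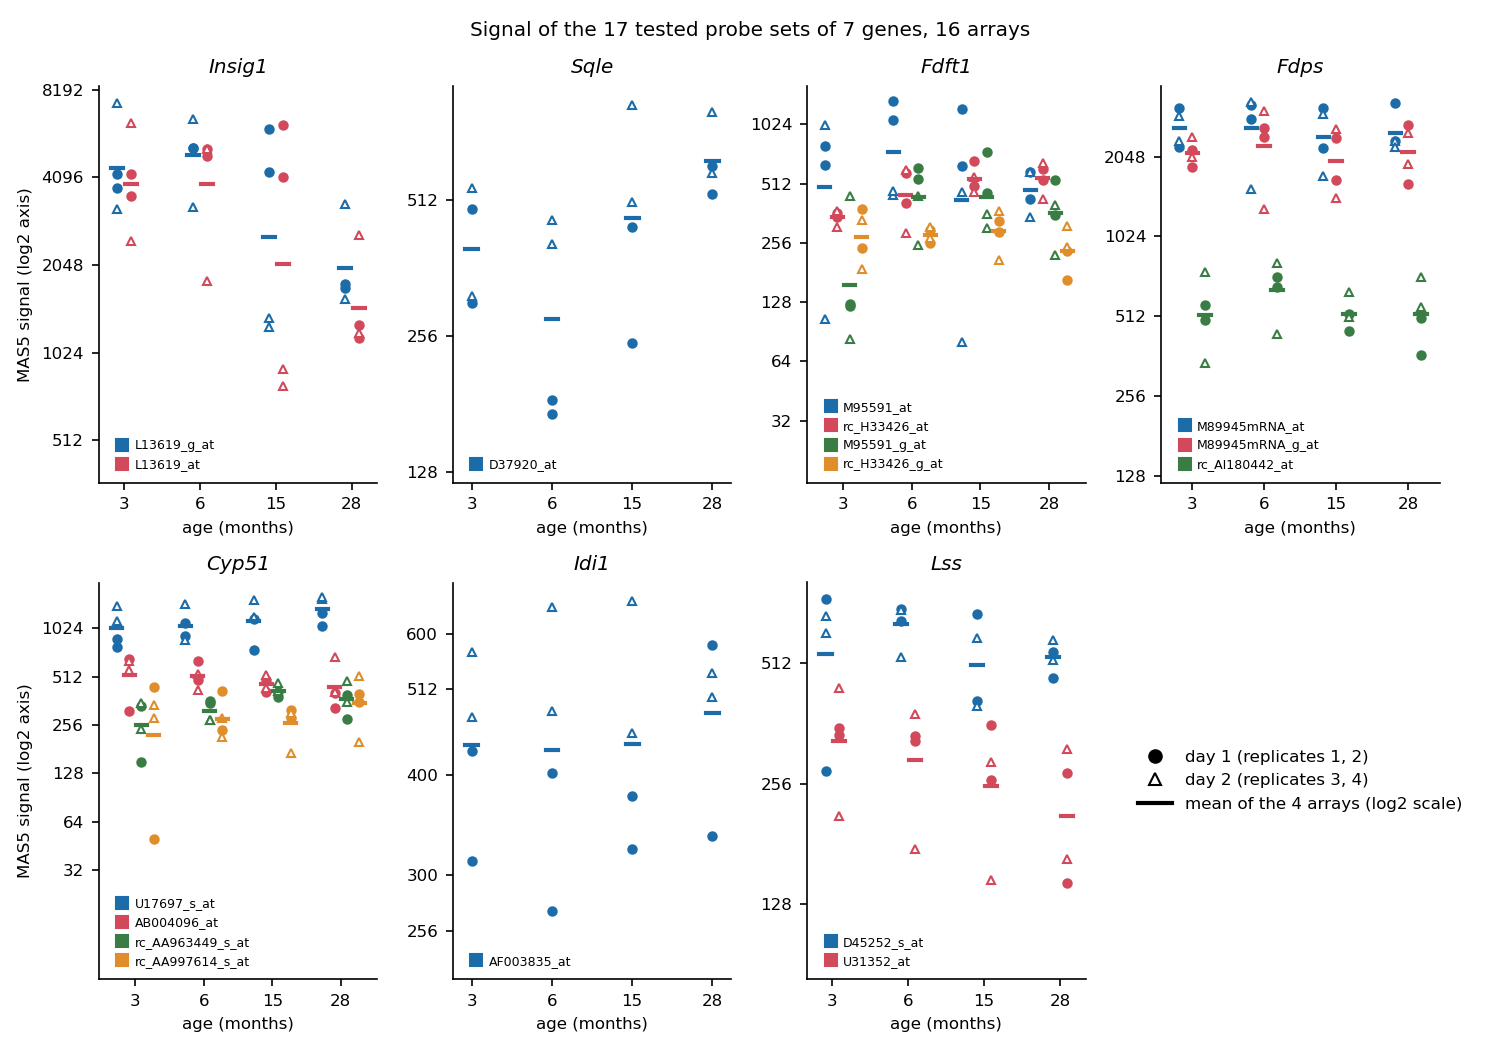
MAS5 signal (log2 axis) of the 17 tested probe sets of 7 genes against age in months, 1 point per array, filled circles for day 1 and open triangles for day 2, with bars at the mean of the 4 arrays. Insig1 lay between 1148 and 3329 at 28 months on its 2 probe sets, whereas the points of Fdps, Cyp51, Idi1 and Lss overlapped across most ages.

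**Figure D2:**
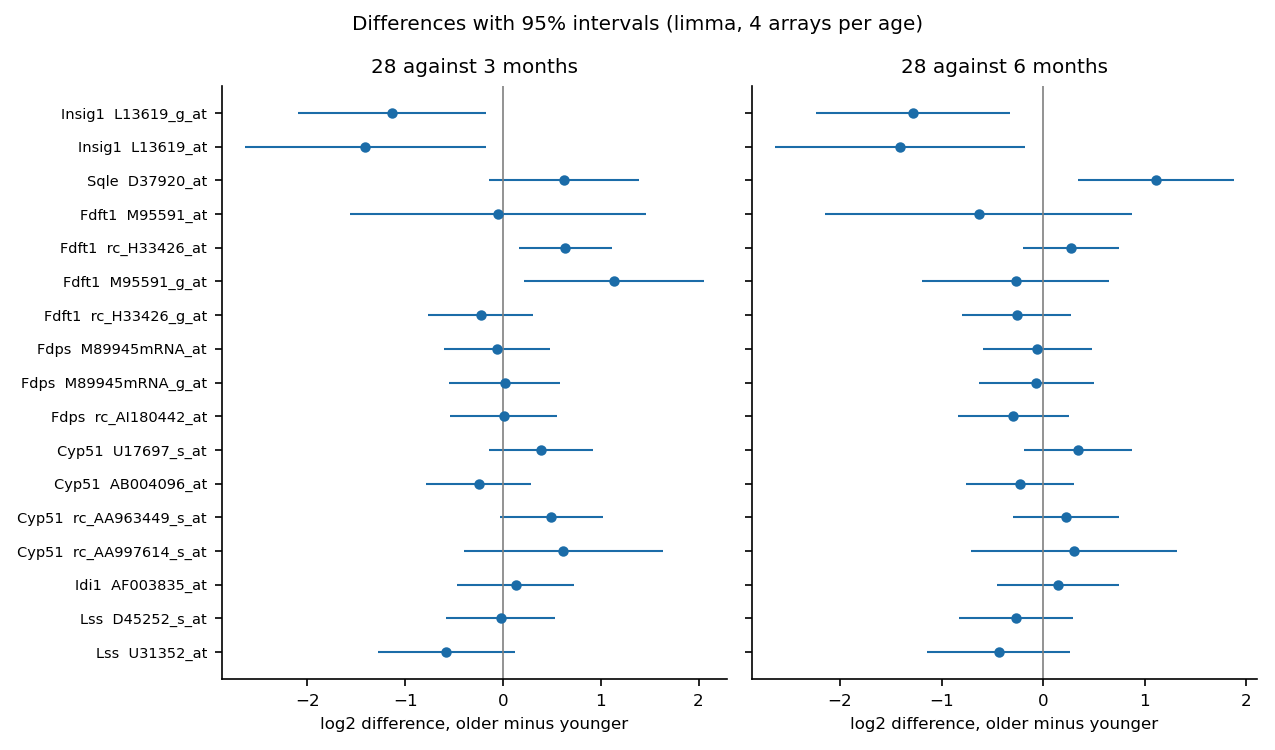
Difference of log2 values (x axis) of the 17 tested probe sets at 28 against 3 months and at 28 against 6 months, with the 95% interval from limma (4 arrays per age). Both Insig1 intervals lie below 0 in both panels, that of Sqle lies above 0 at 28 against 6 months, and those of Fdps, Idi1 and Lss include 0. At 28 against 3 months 2 of the Fdft1 intervals also lie above 0, at 0.16 to 1.11 (rc_H33426_at) and 0.21 to 2.05 (M95591_g_at).

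Promoters of 5 of the 7 genes were in the RefSeq table of rat promoters (assembly GRCr8, from 250 bases before to 50 after the gene start): Insig1, Fdps, Cyp51, Idi1 and Lss. Those of Insig1, Fdps and Cyp51 are printed because these genes differ in what the arrays show: Insig1 was low on the arrays low in fat transcripts, the differences of Fdps between 28 and 3 months lay near 0, and 3 of 4 Cyp51 probe sets were higher at 28 months without passing the test. Each is 300 bases long, 5′ to 3′ on the strand of the gene, and capitals mark CCAAT or its complement ATTGG, the letters bound by NF-Y, a factor that works beside SREBPs at sterol genes.
Insig1, chr4:8057720-8058019, minus strand.
Insig1: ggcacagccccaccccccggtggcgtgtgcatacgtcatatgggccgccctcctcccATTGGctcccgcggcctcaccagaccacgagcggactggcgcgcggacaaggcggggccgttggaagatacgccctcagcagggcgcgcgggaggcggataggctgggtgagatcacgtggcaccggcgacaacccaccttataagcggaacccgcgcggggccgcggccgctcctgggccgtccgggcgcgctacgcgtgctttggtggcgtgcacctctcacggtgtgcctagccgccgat
Fdps, chr2:176804767-176805066, minus strand.
Fdps: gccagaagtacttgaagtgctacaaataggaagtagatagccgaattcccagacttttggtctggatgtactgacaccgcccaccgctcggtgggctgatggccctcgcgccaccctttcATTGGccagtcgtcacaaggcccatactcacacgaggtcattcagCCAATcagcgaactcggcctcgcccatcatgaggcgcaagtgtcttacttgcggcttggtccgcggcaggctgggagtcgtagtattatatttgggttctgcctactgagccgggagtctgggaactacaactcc
Cyp51, chr4:30991443-30991742, plus strand.
Cyp51: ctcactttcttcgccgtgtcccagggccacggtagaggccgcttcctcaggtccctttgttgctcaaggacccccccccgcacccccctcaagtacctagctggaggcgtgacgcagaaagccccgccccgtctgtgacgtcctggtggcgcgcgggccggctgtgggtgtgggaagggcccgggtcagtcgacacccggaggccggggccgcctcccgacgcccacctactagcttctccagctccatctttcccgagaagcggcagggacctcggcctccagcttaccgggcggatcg
The Insig1 window holds 1 match of CCAAT, 193 bases before the start, and that of Fdps holds 2, at 130 and 85 bases before it. The Cyp51 window has no match of these 5 letters. Searched on both strands, CCAAT was in 4 of the 5 member promoters and in 37.5% of all 33469 promoters in the table. GGGCGG, the letters of the GC box bound by Sp1, was also in 4 of 5, against 33.1% of all. TCACNCCAC, a form of the sterol response element, was in 0 of 5, against 1.12% of all, which says only that these letters are not in these windows. The motifs share no letters in the matches found. With 5 promoters these counts are a description.

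Insig1, the sterol-sensing retention factor, showed the largest difference between 28 and 3 months among the 17 probe sets, on L13619_at. On probe set L13619_g_at the signals at 3 months were 4198, 3782, 7386 and 3192 on replicates 1 to 4, and at 6 months they were 5177, 5173, 6489 and 3249. At 15 months they were 6016 and 4273 on day 1 and 1343 and 1252 on day 2. At 28 months they were 1715, 1769, 3329 and 1571. At 28 months 3 of the 4 arrays lay below every array of 3 and 6 months, replicate 3 lay above the lowest array of each of those ages, and the 15 month arrays split by day into values like the young and values below the old.

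On log2 values L13619_g_at stood at 12.11 ± 0.52 at 3 months, 12.26 ± 0.42 at 6, 11.34 ± 1.15 at 15 and 10.98 ± 0.49 at 28 months (SD, n = 4 each). The difference at 28 against 3 months was -1.13 (SE 0.45, 95% interval -2.09 to -0.18), a signal 2.19-fold lower, with an adjusted p of 0.172 by limma and 0.0811 with the replicate block. Against 6 months the difference was -1.28 (SE 0.45, adjusted p = 0.108 by limma), and it passed with the block (adjusted p = 0.0456). The day 1 arrays gave -1.19 and the day 2 arrays -1.08 at 28 against 3 months. At 15 against 3 months the days went opposite ways, with 0.35 on day 1 and -1.89 on day 2, around a pooled difference of -0.77 (adjusted p = 0.703 by limma).

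The other Insig1 probe set, L13619_at, is named for the same sequence record, so the pair is not independent. Its signals at 3 months were 4222, 3529, 6286 and 2478, and at 6 months 5148, 4860, 5139 and 1799. At 15 months it read 6222 and 4099 on day 1 and 899 and 785 on day 2, and at 28 months 1276, 1148, 2594 and 1197. The order of the arrays was nearly that of the first probe set (Pearson r = 0.981 over 16 arrays). At 28 against 3 months it differed by -1.41 (SE 0.58, 95% interval -2.64 to -0.17, 2.65-fold lower, adjusted p = 0.183 by limma and 0.0762 with the block), and at 28 against 6 months also by -1.41 (adjusted p = 0.145, and 0.0654 with the block).

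The Insig1 calls turned on which arrays shared the fit. Its SD on L13619_g_at was 1.15 at 15 months, against 0.52 at 3 and 0.49 at 28 months, and limma takes 1 spread from all 4 ages. With only the 8 arrays of 3 and 28 months both probe sets fell at 28 months (adjusted p = 0.0439 and 0.0293), where 10.2% of all probe sets passed. The 8 arrays of 6 and 28 months gave the same 2 calls at 28 against 6 months (adjusted p = 0.03 and 0.0447, background 11.4%). On day 1 alone, with 2 arrays per age, both probe sets fell against 3, 6 and 15 months (backgrounds 13.3%, 24% and 9.81%).

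Insig1 was lower on the arrays low in fat transcripts. The fat score left a gap between 11.79 and 12.63 with 8 arrays on each side. Above it L13619_g_at read 3782 to 7386, and below it 1252 to 3329, with no overlap. On L13619_at the ranges were 3529 to 6286 and 785 to 2594. The share of all probe sets tested that part at this gap was not counted. The 8 arrays above the gap were replicates 1 to 3 of 3 and 6 months and replicates 1 and 2 of 15 months, and those below it were all 4 of 28 months, replicate 4 of 3 and 6 months and replicates 3 and 4 of 15 months. Because the arrays fall apart in this way no correlation over all 16 is given. Among the 8 above the gap, L13619_g_at had r = -0.0688 with the fat score (Spearman's rho -0.0238, exact permutation p = 0.873 and 0.977) and L13619_at had r = 0.185 (rho 0.310, exact permutation p = 0.658 and 0.462). Among the 8 below it the values were r = 0.859 and 0.792 (rho 0.810 and 0.690), with an exact permutation p of 0.0196 and 0.0267 for r, and 0.0218 and 0.0694 for rho. Leaving out the 2 arrays farthest from the median fat score gave r = 0.812 and 0.740. Those 8 arrays themselves fall apart, into 5 at 11.07 or above and 3 at 10.10 or below, too few for a value within either. Of these 3, replicate 4 of 15 months and replicate 4 of 28 months had the high beta-actin ratios, 3.20 and 3.82. The permutation also treated arrays of different ages and runs as exchangeable. Over the 34 relations computed, 1 per member probe set on each side of the gap, none passed. The adjusted p of both Insig1 r values below the gap was 0.302, the smallest for r. Cyp51 rc_AA963449_s_at shared this value below the gap, with r = -0.808. The smallest for rho was 0.182. It belonged to that Cyp51 probe set below the gap (rho -0.881) and to Fdft1 M95591_at above it (rho 0.857). Adding the fat score to the model, the difference at 28 against 3 months was -0.19 on L13619_g_at and -0.12 on L13619_at (adjusted p = 0.894 and 0.936 by limma). In that fit 0 of the 17 member probe sets were called, where 0.724% of all were. With the covariate and the replicate block together the signs turned, to 0.33 and 0.32. In pieces of whole tissue, fewer cells of a type and less RNA per cell cannot be told apart.

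**Figure D3:**
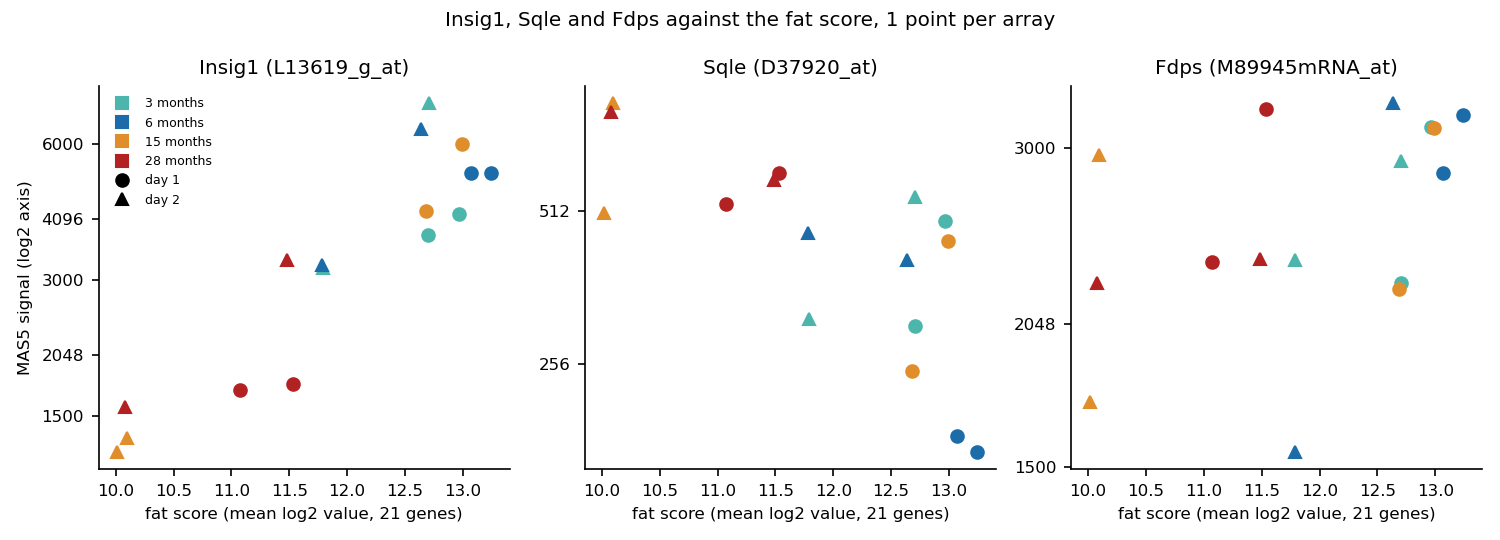
MAS5 signal (log2 axis) of Insig1 (L13619_g_at), Sqle (D37920_at) and Fdps (M89945mRNA_at) against the fat score, a mean over 21 fat markers (log2 values), with 1 point per array coloured by age and shaped by day. Insig1 lies at 3782 to 7386 on the 8 arrays above the gap in the fat score and at 1252 to 3329 below it, while Sqle and Fdps overlap across the gap.

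Idi1, the isomerase that supplies dimethylallyl diphosphate, showed no age difference that could be told from the spread. Its tested probe set AF003835_at read 313, 429, 569 and 472 at 3 months and 271, 403, 647 and 481 at 6 months. It read 324, 377, 659 and 452 at 15 months and 336, 581, 500 and 536 at 28 months. All 4 ages overlapped, and at 3, 6 and 15 months replicate 3 was the highest array and replicate 1 the lowest. At 28 against 3 months the difference was 0.13 (SE 0.28, 95% interval -0.47 to 0.73, adjusted p = 0.814 by limma). The other probe set, rc_AI045395_at, read 10 to 149 and was too dim to be tested.

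Fdps, which makes the farnesyl diphosphate that feeds both sterols and protein prenylation, was nearly level. Probe set M89945mRNA_at read 3135, 2235, 2914 and 2350 at 3 months and 2841, 3218, 3303 and 1551 at 6 months. At 15 months it read 3129, 2208, 2956 and 1729, and at 28 months 2342, 3261, 2354 and 2236. The lowest array of the 16 was replicate 4 at 6 months, and each age spanned the means of the others. Between 3 and 28 months the difference was -0.06 on this probe set (95% interval -0.60 to 0.48), 0.02 on M89945mRNA_g_at (-0.55 to 0.58) and 0.01 on rc_AI180442_at (-0.54 to 0.56). These intervals, from 4 arrays per age and not adjusted for the number of probe sets, are not limits of detection. Differences outside such bounds also went uncalled on other member probe sets.

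Fdft1, squalene synthase, which commits farnesyl diphosphate to sterols, had 4 tested probe sets that disagreed. Probe set rc_H33426_at read 363, 345, 371 and 310 at 3 months, 579, 409, 286 and 603 at 6 months, 500, 667, 555 and 465 at 15 months and 536, 605, 648 and 428 at 28 months. All 4 arrays at 15 and all 4 at 28 months lay above the 4 at 3 months, a separation that 2.97% of all probe sets showed at 15 against 3 months and 17.7% at 28 against 3 months. The differences were 0.62 and 0.64 (SE 0.22 each), with adjusted p = 0.589 and 0.146 by limma. The latter was 0.66 within day 1 and 0.61 within day 2, or 0.75 once the fat score was a covariate.

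Probe set M95591_g_at of Fdft1 read 125, 122, 441 and 83 at 3 months and 542, 614, 249 and 444 at 6 months. It read 738, 458, 304 and 358 at 15 months and 355, 533, 400 and 222 at 28 months. Apart from replicate 3, the 3 month arrays were the lowest of all 16. The differences from 3 months were 1.40 at 6, 1.40 at 15 and 1.13 at 28 months (SE 0.43 each; adjusted p = 1.00, 0.497 and 0.162 by limma), and the one at 28 months was 1.70 within day 1 and 0.57 within day 2. In the fit without the fat score the remaining probe sets did not share this. M95591_at, which is named for the same record, was at -0.05 at 28 against 3 months (95% interval -1.56 to 1.46). There rc_H33426_g_at was at -0.23 (-0.77 to 0.31). With the fat score as a covariate M95591_g_at was at 1.71 and M95591_at at 1.27 at 28 against 3 months (SE 0.44 and 0.57). In that model rc_H33426_at was at 0.75 and rc_H33426_g_at at -0.11, and none of the Fdft1 probe sets passed the test. M95591_at had 2 very low arrays, with 105 for replicate 4 of 3 months and 80 for replicate 4 of 15 months, and read 345 to 1353 elsewhere.

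Sqle, squalene epoxidase, a rate-limiting oxygenase of the route, went the other way from Insig1. Its probe set D37920_at read 489, 304, 546 and 314 at 3 months, 185, 172, 409 and 463 at 6 months and 446, 248, 833 and 508 at 15 months. At 28 months it read 528, 609, 588 and 802. All 4 arrays at 28 months lay above the 4 at 6 months, a separation that 17.4% of all probe sets showed, and 3 of the 4 lay above every array at 3 months. The difference at 28 against 6 months was 1.11 (SE 0.36, 95% interval 0.34 to 1.88, 2.16-fold higher), with an adjusted p of 0.0988 by limma, and it passed with the replicate block (adjusted p = 0.0225). Within day 1 it was 1.58 and within day 2 0.64. A model that held the fat score gave 0.57 (adjusted p = 0.800 by limma). Without replicate 4 at 6 months Sqle also passed (1.34, adjusted p = 0.0352 by limma), where 14% of all probe sets did. At 28 against 3 months the difference was 0.62 (SE 0.36, adjusted p = 0.315). Sqle read 172 to 546 on the 8 arrays above the gap in the fat score and 314 to 833 on those below, so the ranges overlapped.

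Lss, lanosterol synthase, which closes the sterol rings, had 2 tested probe sets. D45252_s_at read 737, 275, 670 and 607 at 3 months, 652, 698, 692 and 529 at 6 months, 677, 411, 590 and 400 at 15 months and 545, 469, 585 and 521 at 28 months. Replicate 2 at 3 months was the lowest array, and the ages overlapped, with a difference of -0.02 at 28 against 3 months (SE 0.26, 95% interval -0.58 to 0.54). U31352_at read 339, 353, 443 and 213 at 3 months, 337, 327, 383 and 176 at 6 months, 358, 262, 290 and 147 at 15 months and 272, 145, 312 and 166 at 28 months. On it replicate 4 was the lowest array at 3, 6 and 15 months, and the difference at 28 against 3 months was -0.58 (SE 0.33, adjusted p = 0.310 by limma; -0.15 in a model that held the fat score). The probe set E12275cds_s_at, at 23 to 408, was not tested.

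Cyp51, the lanosterol demethylase, had 4 tested probe sets. U17697_s_at read 779, 883, 1410 and 1132 at 3 months, 915, 1097, 1445 and 869 at 6 months, 1163, 750, 1534 and 1207 at 15 months and 1050, 1268, 1550 and 1601 at 28 months. The ages overlapped, with a difference of 0.39 at 28 against 3 months (SE 0.25, 95% interval -0.14 to 0.92, adjusted p = 0.363 by limma). On rc_AA963449_s_at the 15 month arrays, at 381 to 466, lay above all arrays at 3 months, at 150 to 352, and at 6 months, at 274 to 361. The differences were 0.67 and 0.40 (adjusted p = 0.605 and 0.624 by limma), and the separation at 15 against 6 months was shown by 2.46% of all probe sets. In the 28 against 3 months comparison this probe set was at 0.50, rc_AA997614_s_at at 0.62 and AB004096_at at -0.25 (adjusted p = 0.242, 0.466 and 0.590). The signal of rc_AI230255_at, 31 to 242, was too low to be tested.

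The members did not move as 1 group across the arrays. Over the 21 pairs formed by the brightest probe set of each gene the median Pearson r of log2 values over 16 arrays was 0.231, from -0.57 for Insig1 with Sqle to 0.71 for Cyp51 with Idi1, and 13 of 21 were above 0. Pairs of probe sets of the same gene had a median r of 0.449 (17 pairs, 0.087 to 0.981), and pairs of different genes 0.138 (119 pairs). Insig1 was nearest to U31352_at of Lss among the other members' probe sets (r = 0.753 for L13619_g_at and 0.792 for L13619_at). All pairs share the same 16 arrays, their runs and their fat content, so these values are descriptions.

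**Figure D4:**
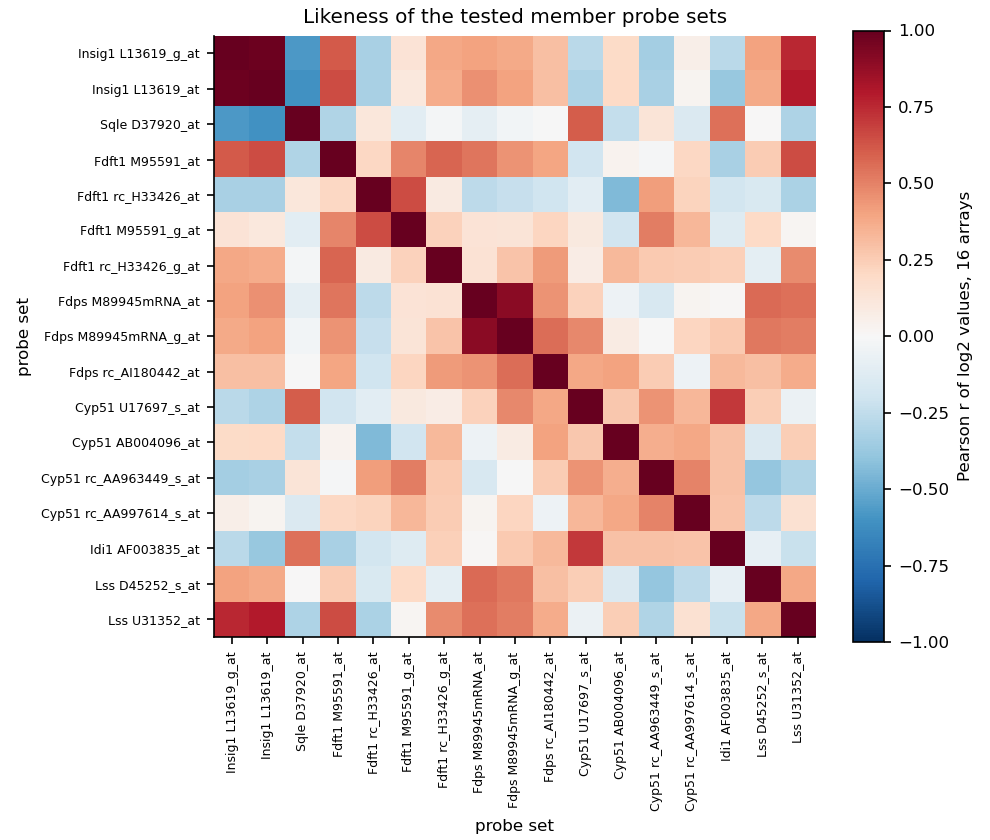
Pearson r of log2 values over 16 arrays (colour, from -1 to 1) for each pair of the 17 tested member probe sets, on both axes in the same order. The Insig1 probe sets stand together at 0.981 and are negative with Sqle (-0.57 and -0.61), and Cyp51 U17697_s_at is positive with Idi1 at 0.71.

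The genes most like each member were found by Pearson r over the 16 arrays, with the brightest probe set of the member. For Insig1 they were Pdhb, a subunit of pyruvate dehydrogenase (r = 0.969), and Acly, ATP citrate lyase, which makes cytosolic acetyl-CoA (r = 0.968). Between 3 and 28 months these probe sets differed by -1.56 and -2.38 (adjusted p = 0.146 and 0.112 by limma). For Sqle they were Psme4, a proteasome activator (0.877), and Nol3, an inhibitor of cell death (0.866). Cyp51 was most like Ctbs, a lysosomal chitobiase (0.835), and Scd2, a stearoyl-CoA desaturase (0.801). For Fdps they were Cdc34, a ubiquitin-conjugating enzyme (0.906), and Polb, DNA polymerase beta (0.777). For Fdft1 they were Uqcc2 and Slc37a4 (0.841 and 0.836), for Idi1 Mtdh and Rbmx (0.805 and 0.730), and for Lss Ndufb8 and Pisd (0.852 and 0.821). A score over the 7 genes, the mean of their standardised values, was most like Scn7a (0.629), and next came Ndufb8, Ppp1ca, Bend3, Cdc123, Rnf157, Rab8a, Tdp1, Polb and Ndrg3 (down to 0.546). They are the highest among all other genes tested, with no p given, and say nothing of shared control.

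Other enzymes of the route were lower more often than higher at 28 months, without passing the test. Of 15 listed genes 9 were on the array and 8 were tested; 2 were higher and 6 lower at 28 against 3 months, with a median of -0.39, against -0.02 for the 7 members and 0.07 for all 3153 genes tested. None was called in the fit without the runs (limma; 3 of 8 at an unadjusted p under 0.05, as were 711 of all 3153 genes), whereas the block gave 1 that rose and 1 that fell, beside 215 and 159 of all genes. Nsdhl, a sterol dehydrogenase, went from 8.84 ± 0.49 to 7.96 ± 0.25 (SD, n = 4), a difference of -0.88 (SE 0.29, adjusted p = 0.129, and 0.0426 with the block). Msmo1, the sterol C4-methyl oxidase that acts in the same demethylation, went from 10.31 ± 0.19 to 11.09 ± 0.32, a difference of 0.78 (SE 0.30, adjusted p = 0.166 and block value 0.0345), while a second Msmo1 probe set lay at 0.64 (adjusted p = 0.241 and block value 0.122). In the model that held the fat score these genes were at -0.45 and 0.22. Acat2, the cytosolic thiolase that starts the route, was at -1.28 and -1.44 on its probe sets (adjusted p = 0.159 and 0.142, and 0.0614 and 0.028 with the block), and at -0.44 on the first with the fat score. Mvd, which makes isopentenyl diphosphate, was at 0.53 and Dhcr7, the last reductase, at -0.77 (adjusted p = 0.423 and 0.393). In the model that held the fat score Mvd was at 0.51, and Dhcr7 turned sign, to 0.40. Mvk also turned sign in that model, from -0.46 to 0.61, whereas the other lower genes of this list stayed below 0.

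Of 7 listed genes of the SREBP machinery 2 were tested. Srebf1, the sister factor that favours fatty acid genes, was at -0.32 (SE 0.40) and Mbtps2, the protease that makes the second cut, at -0.23 (SE 0.44) at 28 against 3 months (adjusted p = 0.668 and 0.788 by limma). Of 22 listed genes of cholesterol uptake, efflux and storage 10 were tested, and 3 were higher and 7 lower with a median of -0.13 and 0 called. In that list Nr1h3, the oxysterol receptor LXR alpha, was at -0.80 (SE 0.34, adjusted p = 0.189, block value 0.0535) and Lipa, lysosomal acid lipase, at -0.44 (adjusted p = 0.341). At 28 against 6 months Nr1h3 was at -0.89 and passed with the block (adjusted p = 0.0291). Of all 3153 genes 311 passed as higher and 248 as lower in that comparison with the block. In the model that held the fat score Nr1h3 was at -0.12. Of 6 listed genes that use the prenyl branch 3 were tested and 0 called. Fnta, a farnesyltransferase subunit, was at -0.37 and Pggt1b, a subunit of the enzyme for the longer prenyl group, at 0.21 (adjusted p = 0.233 and 0.743).

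The genes of fatty acid synthesis, which SREBP1 serves, were tested beside those of the cholesterol route. Of 10 tested, 1 was higher and 9 lower at 28 against 3 months, with a median of -1.98. None was called in the fit without the runs (9 of 10 at an unadjusted p under 0.05, against 711 of all 3153 genes), whereas the block gave 7 that fell and 1 that rose, against 159 and 215 of all genes. Acly went from 14.83 ± 0.63 to 12.80 ± 0.65 (difference -2.04, SE 0.63, adjusted p = 0.11, and 0.0311 with the block) and Fasn, fatty acid synthase, from 15.68 ± 0.66 to 13.36 ± 0.93 (difference -2.32, SE 0.83, adjusted p = 0.152, and 0.0272 with the block). The others that fell with the block were Acaca and Acacb, the acetyl-CoA carboxylases, at -2.61 and -2.25, Me1, malic enzyme, at -1.98, Gpam at -1.76 and Slc25a1, the citrate carrier, at -1.56 (block adjusted p = 0.0298, 0.0311, 0.0277, 0.0162 and 0.0318). In the model that held the fat score Acly and Fasn were at -0.59 and -0.30. Scd2 was the gene that rose with the block, by 1.00 on its brightest probe set (SE 0.35, adjusted p = 0.147, and 0.00663 with the block; 0.37 with the fat score). Its other tested probe sets were at 1.02, 0.13, -0.54 and -0.54.

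**Figure D5:**
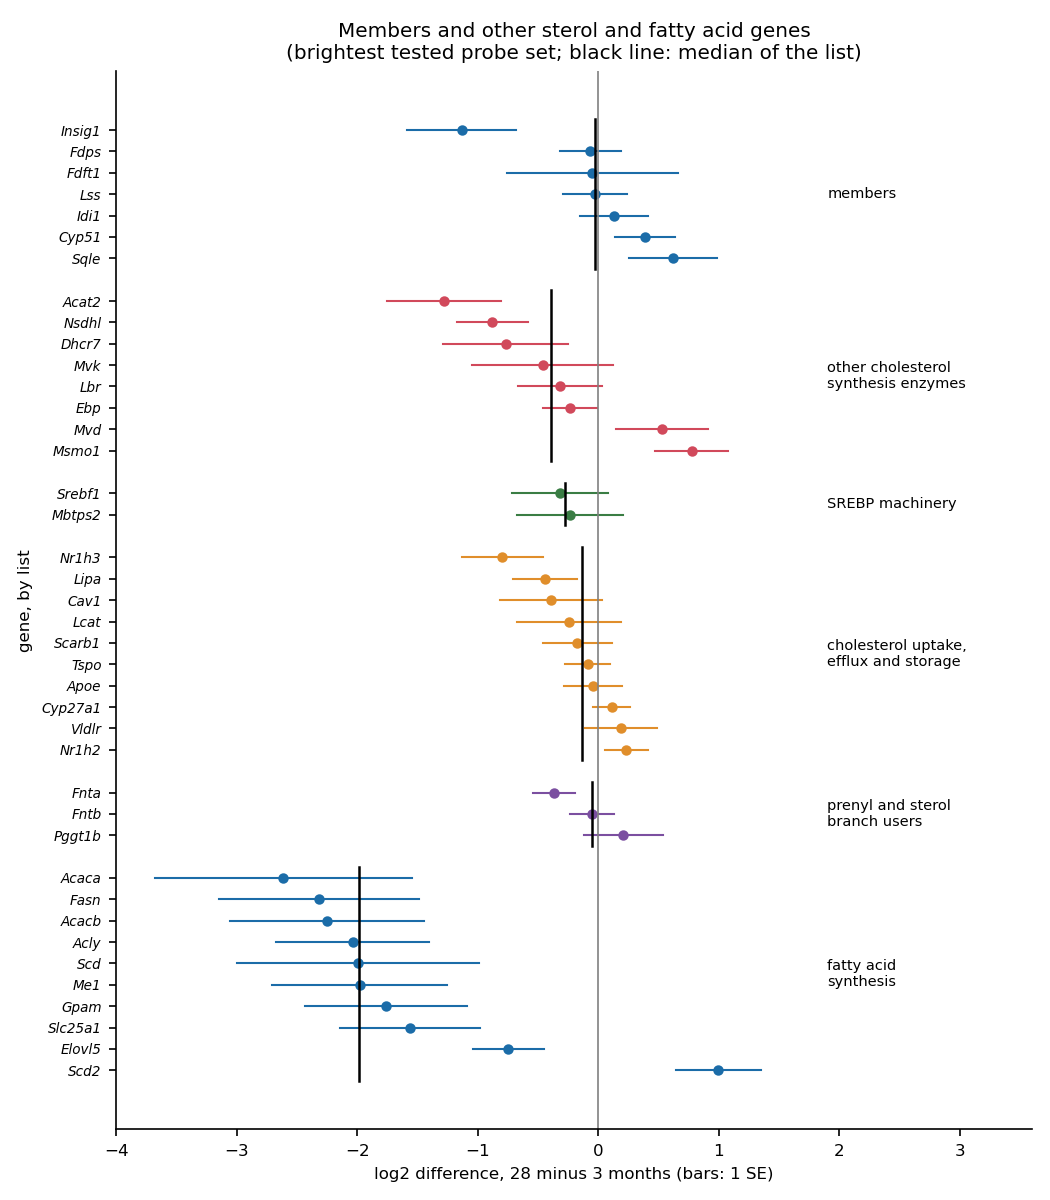
Difference of log2 values at 28 against 3 months (x axis, bars 1 SE from limma) for each tested gene of 6 lists, by the brightest probe set, with a black line at the median of each list. The members lie around -0.02 with Insig1 alone below -1, the other cholesterol enzymes around -0.39 and the fatty acid genes around -1.98.

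Markers of other cell types were set beside these values. Of 14 general adipocyte markers tested 14 were lower at 28 against 3 months (median -1.36), and Slc2a4, a glucose transporter that answers to insulin, fell by 1.14 (adjusted p = 0.0205 by limma). Of 7 brown fat markers 7 were lower (median -1.70), with Fabp3 at -2.50 and Kcnk3 at -0.95 (adjusted p = 0.122 and 0.147). Among smooth muscle markers Pln and Des were at 1.73 and 1.34 (adjusted p = 0.129 and 0.162). S100a4, of fibroblasts, rose by 1.64 (adjusted p = 0.0216), and Uchl1, of nerve, rose by 1.80 (adjusted p = 0.0143), each the 1 called of 9 and of 10 tested. Of the 9 fibroblast markers 5 were higher and 4 lower (median 0.01), and of the 10 of Schwann cells and nerve 7 were higher and 3 lower (median 0.15). Of 5 macrophage markers 2 were higher and 3 lower (median -0.20), of 6 endothelial markers 4 were higher and 2 lower, and of 5 red blood cell markers 5 were lower. Icam2 and Flt1, of endothelium, were at 1.39 and -1.03, and Lgals3 and Cd4, of macrophages, at -1.23 and -0.47. Slc4a1 and Car2, of red blood cells, were at -0.48 and -0.93, and Myh1 and Atp2a1, of skeletal muscle, at -0.77 and 0.51. Cyp21a1, of steroid-making cells, was at 0.06 and Krt8, of epithelium, at 0.25. None of the genes named since Uchl1 passed the test, but with the replicate block Icam2 and Lgals3 did (adjusted p = 0.0379 and 0.0364). So did Vim, of fibroblasts, and Mal, of myelin, higher by 0.78 and 0.90 (0.0152 and 0.0312), as well as Fabp3 and Kcnk3 (0.0117 and 0.018) and, by count, 6 general adipocyte and 3 brown fat markers in all, each lower. Beside these, 215 genes passed as higher and 159 as lower with the block, of all 3153 tested. The part of these cell types other than fat in the values of the members was not tested.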

How the data were processed

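RNA from 16 rat aortas (4 per age) was hybridised to Affymetrix rat arrays, 1 per rat. The authors deposited intensity values, 1 linear signal per probe set, made with MAS5 per the submitters' processing notes. Version and settings of that step are not stated there. Scaling had been done before deposit, with trimmed means (2% off each end) of 1001.7 to 1002.0. The deposited array records, text of type other with no score, gave rat, run and day per array. Gene symbols came from the platform annotation (7006 probe sets with 1 symbol, 308 with several, 1426 with none).

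Values were analysed as log2(signal + 16). Probe sets with a mean under the 40th percentile and 59 controls of 8799 were left out. The 5250 left were fitted with limma 3.58.1 (R 4.3.3), 1 mean per age, 12 residual degrees of freedom, and Benjamini-Hochberg adjustment over all of them. All tests were 2-sided. Precision is limited by the number of arrays. Differences of dim probe sets are understated, and detection calls were not used. The procedure was tested on simulated data.

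The members and lists were chosen with earlier results of these data known. In each list the genes past the threshold, or else the 2 with the smallest p at 28 against 3 months, were named, with most of those that passed only under the replicate block at that comparison, and a few more enzymes, added after their values were seen. By the array records a replicate number is a hybridisation run (4 in all) that held 1 array from every age, so the numbers pair the arrays. Replicates 1 and 2 each had a chip lot of their own, and replicates 3 and 4 shared 1 lot. Fluidics station 1 served replicates 1 and 4, and station 2 served replicates 2 and 3. Effects of run, lot and station cannot be told apart in the block, nor those of day and lot. The correlation of deviations from the age means had a median of 0.171 over 24 pairs of the same number (13 over 0.1). Over 72 others the median was -0.034 (19 over 0.1). The ranges overlapped, from -0.31 to 0.63 for the same number and from -0.68 to 0.58 for the others.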

Additional observations from a re-analysis of the deposited data

Results flagged for a closer look

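In groups of 4 arrays, an array was singled out where its gap to the next, divided by the range of the group, was above Dixon's 95% critical value for 4 samples. Of 80 groups examined 4 had such an array, and chance gives about 1 in 20. Insig1 on replicate 3 at 28 months stood above the other 3 arrays on both probe sets, with a gap of 0.842 of the range on L13619_g_at and 0.870 on L13619_at. On L13619_at replicate 4 at 6 months stood below the others, with 0.945. For Fdps, replicate 2 at 28 months stood above the others on M89945mRNA_at, with 0.863.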

How the results depend on the processing

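The count of called member probe sets was 0 in all comparisons and settings other than these. With the replicate block it was 2 at 28 against 6 months, and with the hybridisation day as a factor 1 (Sqle, adjusted p = 0.0259; background 16%). On day 1 alone, with 2 arrays per age, it was 3 at 28 against 3 months (background 13.3%), 4 at 28 against 6 (24%), 2 at 28 against 15 (9.81%) and 3 in the F test (13.9%). Besides Insig1, the day 1 calls between 2 ages were Fdft1 M95591_g_at, at 1.70 at 28 against 3 months, and 2 at 28 against 6 months. Those were Sqle at 1.58 and Fdft1 M95591_at at -1.245. With only the arrays of the ages compared it was 2 at 28 against 3 and 2 at 28 against 6 months (11.4%). Leaving out single arrays gave 0 to 1 at 28 against 6 months, the 1 being Sqle without replicate 4 at 6 months. The F test has no version with 2 ages only.

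Of the single differences at 28 against 3 months, 458 kept direction and side of the threshold over the alternatives, 5 newly passed and 42 turned sign, most of them near 0 to begin with. On day 1 alone, Lss D45252_s_at was at 0.16, Fdps M89945mRNA_at at 0.06 and Fdps rc_AI180442_at at -0.29. On day 2 alone, Idi1 was at 0.00 (just below 0), Fdps M89945mRNA_g_at at -0.01, Fdft1 M95591_at at 0.40 and Fdft1 rc_H33426_g_at at 0.12. With the fat score as a covariate, Idi1 was at -0.20, Lss D45252_s_at at 0.07, Fdps M89945mRNA_at at 0.22 and Fdft1 M95591_at at 1.27. With fat score plus replicate block, Idi1 was at -0.03, Lss D45252_s_at at 0.22, Insig1 at 0.32 (L13619_at) and 0.33 (L13619_g_at), Fdft1 M95591_at at 0.62 and Fdps rc_AI180442_at at -0.03. A cRNA note in the array records was on replicates 2 and 4 of 15 months and replicates 3 and 4 of 28 months only. It is thus partly confounded with age, and its meaning is not stated. With this note as a covariate, Lss D45252_s_at was at 0.10, Fdps M89945mRNA_at at 0.16, Fdps rc_AI180442_at at -0.11 and Fdft1 M95591_at at 0.40. Quantile normalization gave -0.03 on Fdps M89945mRNA_g_at and -0.02 on rc_AI180442_at. Without the 2 arrays whose beta-actin ratio was high, Fdft1 M95591_at was at 0.10 and Fdps rc_AI180442_at at -0.14. Leaving out single arrays gave -0.02 to 0.29 for Idi1, -0.33 to 0.12 for Lss D45252_s_at, -0.74 to 0.29 for Fdft1 M95591_at, and for Fdps -0.19 to 0.02 on M89945mRNA_at, -0.09 to 0.15 on M89945mRNA_g_at and -0.18 to 0.18 on rc_AI180442_at. The cause was not tested.

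The precision of these values is limited by 4 arrays per age, and the spread at 15 months enters every comparison.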
